A study of Mus musculus with 4 samples.

Results

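The RNA of 10 genes for serotonin receptors was followed in the hippocampus of wild type (WT) and Lsd1 knock-in (KI) mice. The genes were Htr1a, Htr1b, Htr1f, Htr2a, Htr2c, Htr3a, Htr4, Htr5a, Htr5b and Htr7, taken as listed symbols and matched by Ensembl gene ID, and all 10 were found among the 26328 genes listed in at least 1 sample. Htr1d and Htr6 are left out because they lie on chromosome 4, 0.11 and 2.46 Mb from Kdm1a, the gene that encodes LSD1. Poly(A) RNA of hippocampal tissue was sequenced from 2 WT and 2 KI samples, all from male mice labelled C57BL/6. The KI animals carry on both alleles an LSD1, a histone demethylase, in which the serine phosphorylated by PKCα is replaced with alanine, in every cell and from the germ line. The WT mice are littermates, and no treatment of the RNA samples is named. An age of 8 to 15 weeks is given for the mice of the behavioral tests, and the age at RNA extraction is not given in the sources used here. The labels number the samples as replicates but do not say that each is a separate animal, so the p-values measure the spread between these samples, which may in part be technical.

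Serotonin is made by neurons of the raphe nuclei in the brainstem, whose axons reach the hippocampus and release it onto pyramidal cells, granule cells and interneurons. Nearly all of its receptors are coupled to G proteins. Those of the 5-HT1 and 5-HT5 families act through Gi/o, which lowers cyclic AMP and opens GIRK potassium channels. Receptors of the 5-HT2 family act through Gq and phospholipase C, and 5-HT4 and 5-HT7 act through Gs, which raises cyclic AMP. 5-HT3 stands apart as an ion channel that serotonin opens directly. In the hippocampus these receptors are known for setting excitability and transmitter release, and several of them for a part in learning.

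Levels are given in RPKM, a unit that divides the reads of a gene by its exon length and by the depth of its library. Depth was 13414957 and 8827967 mapped reads in WT replicates 1 and 2, and 14381252 and 14949756 in KI replicates 1 and 2. Depth and the reads of each gene were read off the whole-read steps in the values. The mean of Kdm1a was 11.4 ± 0.32 RPKM for WT against 11.1 ± 0.14 RPKM for KI (SD, n = 2 each), which does not check the labels, since the amino acid exchange is not visible in a gene's RPKM. Markers of hippocampal neurons were high in every sample, with Nrgn, a postsynaptic calmodulin-binding protein, at 509 to 600 RPKM and Neurod6, a transcription factor of pyramidal cells, at 114 to 129 RPKM. Wfs1, of the same list, was far apart between the KI samples, and these lay on either side of WT. It read 42.2 and 41.2 RPKM in WT, against 28.6 (replicate 1) and 50.9 RPKM (replicate 2) in KI. Markers of dentate granule cells were lower in both KI samples, with C1ql2 at 41.8 and 44.0 RPKM in WT against 30.7 and 34.2 RPKM in KI, and Prox1, which was picked after its values were seen, at 17.3 and 16.9 against 10.2 and 13.1 RPKM. Both were called by voom (adjusted p = 0.0126 for C1ql2 and 0.00341 for Prox1) and neither by limma (adjusted p = 0.336 and 0.405). In bulk tissue, fewer cells of a type and less RNA per cell cannot be told apart. Markers of neocortex (summed 49.9 and 51.6 RPKM in WT, 58.1 and 54.9 in KI), thalamus (16.2 and 16.1, 23.3 and 18.8) and striatum (20.4 and 19.3, 24.8 and 25) summed higher in both KI samples. Of their genes past the low-value filter, 4 of 5, 2 of 4 and 4 of 6 had each KI sample above each WT sample. Of all genes tested, 24.0% did. In 0, 1 and 1 of them each KI sample was below each WT sample, against 18.1% of all genes. Voom called 2 genes of each list, all upward, where it called 1.28% of all genes upward. Prkcd, the thalamus marker of highest mean level, was at 7.88 and 6.48 RPKM in WT and 12.4 and 9.07 RPKM in KI. The other thalamus markers past the filter differed in direction. Rgs16 was higher in both KI samples (2.29 and 2.57 against 3.75 and 3.95 RPKM). Slc17a6 overlapped (4.9 and 5.9 against 6.33 and 4.74 RPKM), and Lef1 was lower in both (0.689 and 0.681 against 0.49 and 0.649 RPKM). How much of any receptor value came from such differences in tissue or cell make-up was not tested.

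The sequences before the start sites are shown for 4 receptor genes whose KI values lay above their WT values and for which RefSeq (GRCm38.p6) gave an entry. Each is the 250 bases upstream of the start in RefSeq, 5′ to 3′ on the gene's strand. Capitals mark a match to 1 of 7 motifs searched on both strands. For cyclic AMP signalling the response element TGACGTCA was searched, and also its core, TGACG, which every full element holds. Of the common promoter elements, the GC box was searched as GGGCGG. The TATA box was searched as TATAAA. The E-box was searched as CACGTG. The element bound by REST, a repressor known to recruit LSD1, was searched by a stretch of its left part, TTCAGCACC. A stretch of its right part was searched as GGACAGC. The windows are chr13:105443443-105443692 on the plus strand for Htr1a, chr9:81633833-81634082 on the minus strand for Htr1b, chr5:27841697-27841946 on the plus strand for Htr5a and chr19:36057361-36057610 on the minus strand for Htr7. The gene positions given below are from another annotation, GENCODE M21, whose starts differ. By those positions the windows of Htr1a and Htr7 reach into the gene, and the TGACG marked for Htr7 lies inside it. The window of Htr5a ends short of its start there.
Htr1a: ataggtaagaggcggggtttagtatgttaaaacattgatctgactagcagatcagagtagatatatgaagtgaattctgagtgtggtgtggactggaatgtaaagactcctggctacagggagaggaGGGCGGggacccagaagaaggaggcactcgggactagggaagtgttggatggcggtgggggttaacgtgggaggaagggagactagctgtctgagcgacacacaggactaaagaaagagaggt
Htr1b: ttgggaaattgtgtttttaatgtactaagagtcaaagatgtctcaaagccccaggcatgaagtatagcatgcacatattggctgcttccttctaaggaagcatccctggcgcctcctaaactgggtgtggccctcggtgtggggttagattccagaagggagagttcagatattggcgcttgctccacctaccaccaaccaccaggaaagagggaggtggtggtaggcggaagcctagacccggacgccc
Htr5a: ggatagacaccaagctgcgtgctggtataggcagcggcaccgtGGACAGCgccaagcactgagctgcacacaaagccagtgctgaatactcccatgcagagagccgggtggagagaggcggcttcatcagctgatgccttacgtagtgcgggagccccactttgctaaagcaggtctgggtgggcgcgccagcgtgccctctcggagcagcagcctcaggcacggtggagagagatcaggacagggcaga
Htr7: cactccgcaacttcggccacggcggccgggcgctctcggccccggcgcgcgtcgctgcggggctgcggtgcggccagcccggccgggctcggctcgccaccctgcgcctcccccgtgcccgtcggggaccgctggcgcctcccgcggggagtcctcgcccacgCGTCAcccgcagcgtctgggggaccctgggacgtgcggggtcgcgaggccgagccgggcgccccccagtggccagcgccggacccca

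These windows have little in common. Htr7 starts in a GC-rich stretch with 82.0% G and C and 41 CpG dinucleotides, whereas the windows of Htr1a and Htr1b hold 50.4% and 52.4% G and C, near the median of 52.4% over 32817 such windows, with 6 CpG each. Htr5a lies between them with 62.0%. A GC box was found before Htr1a, as in 32.7% of all windows, TGACG before Htr7, as in 17.7%, and GGACAGC before Htr5a, as in 5.28%. None of the 7 motifs was found in the window of Htr1b. Over the 7 receptor genes with an entry (these and Htr1f, Htr2a and Htr2c), TTCAGCACC was found in 0, as against 0.302% of all windows, and GGACAGC in 2, before Htr5a and Htr2a. A match is a description of the letters only. The search took exact letters, so an element with a changed letter was missed, and 0 matches do not show that it is absent. How near the letters around a match come to a full element was not tested.

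The order of the receptor genes by level was led by Htr1a in every sample. Htr1a encodes 5-HT1A, which inhibits pyramidal and granule cells in the hippocampus and serves as an autoreceptor on raphe neurons. It was at 7.64 and 6.27 RPKM in the WT samples and 7.86 and 7.85 RPKM in the KI samples. Htr3a, which encodes the subunit required for the 5-HT3 channel and is found in a class of interneurons, came second in every sample with 4.33 to 5.81 RPKM. Their ranges over the 4 samples were apart from each other and from the rest. Htr2c, with 3.26 to 3.66 RPKM, and the next 6 genes formed a group in which each neighbour overlapped the next, in the order Htr2c, Htr4, Htr5a, Htr1b, Htr7, Htr5b and Htr2a, whose mean over the 4 samples was 2.33 RPKM. Of the neighbours in that group only Htr2c and Htr4 kept their order in every sample, and no test between genes was made. Htr1f was last in every sample, at 0.505 to 0.722 RPKM, apart from all others. As a family these are genes of low level, with only Htr1a above the median gene: among the 18436 genes tested, the mean level of Htr1a stood at percentile 56.8, that of Htr3a at 44.4, that of Htr1b at 31.4 and that of Htr1f at 5.86. The counted length taken for Htr2a was 2971 bases, 53.0% of its exon length in the annotation used here (5606 bases). It is the shortest that gave whole reads in every sample. A multiple of it, with more reads, would do so too, so length and reads of Htr2a are not settled. The lengths taken for the other 9 genes were between 94.9% and 104% of the annotated ones.

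**Figure D1:**
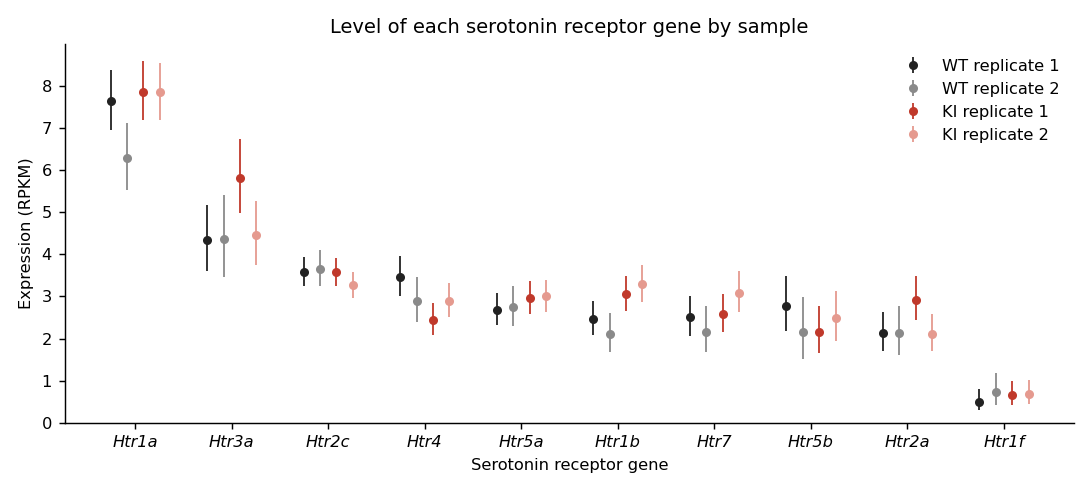
Expression in RPKM (vertical axis) of the 10 serotonin receptor genes (horizontal axis, ordered by mean level) in each sample. Points are the values of WT replicates 1 and 2 (black and grey) and KI replicates 1 and 2 (dark and light red). Bars are exact Poisson 95% intervals of the recovered reads, which cover counting error only. Those of Htr2a rest on the shortest length that gave whole reads. Htr1a stands highest in all 4 samples and Htr1f lowest, and in Htr1b both KI points lie above both WT points.

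Summed over the 10 genes, receptor RNA came to 32.1 and 29.2 RPKM in WT and 34.0 and 33.1 RPKM in KI. Both KI sums thus lay above both WT sums, with a ratio of the means of 1.10. The 5 Gi/o-coupled genes held about the same part of the sum in each sample, 50.1% and 48.0% in WT and 49.0% and 52.3% in KI. The 2 Gq-coupled genes held 17.8% and 19.8% in WT and 19.1% and 16.2% in KI. The 2 Gs-coupled genes held 18.6% and 17.3% in WT and 14.8% and 18.0% in KI, and Htr3a 13.5% and 14.9% in WT and 17.1% and 13.5% in KI. In no class did the shares of the 2 genotypes separate.

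**Figure D2:**
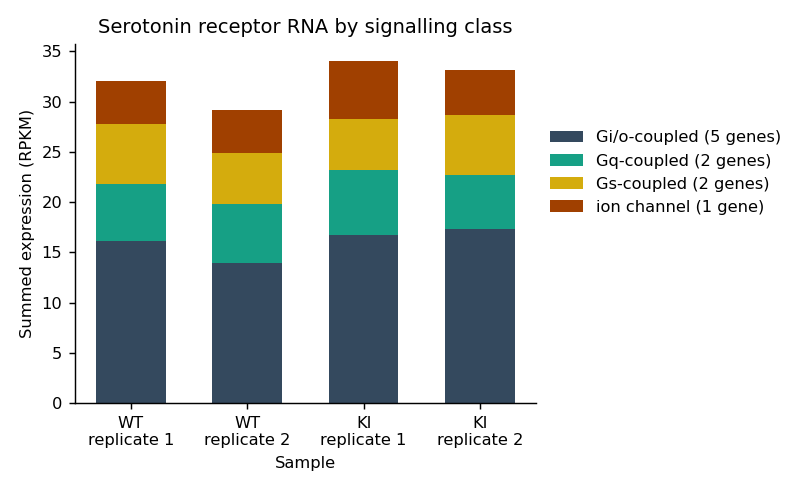
Summed RPKM (vertical axis, from 0) of the serotonin receptor genes in each sample (horizontal axis), stacked by the signalling class of the receptor. The bars reach 32.1 and 29.2 RPKM in WT and 34.0 and 33.1 RPKM in KI, and the Gi/o-coupled part is the largest in every sample.

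KI was compared with WT by limma on log2(RPKM + 1). The test took in 18436 genes that reached 0.5 RPKM in 2 samples or more, and all 10 receptor genes were among them. A gene was called where its adjusted p was below 0.1 and its change 1.2-fold or more. By this rule 0 of the 10 receptor genes were called, as were 0 of all genes (0.0%, smallest adjusted p 0.197). At an unadjusted limma p under 0.05 there was 1 of the 10, Htr1b, against 9.62% of all genes (6.3% higher and 3.33% lower in KI). In 5 receptor genes (Htr1a, Htr1b, Htr3a, Htr5a and Htr7) each KI sample was above each WT sample, against 24.0% of all genes. In 2, Htr2c and Htr4, each was below, against 18.1%. In the other 3, Htr1f, Htr2a and Htr5b, the groups overlapped, against 57.8%. The log2 fold change was positive in 7 receptor genes and in 54.4% of all genes. The ratio of the mean RPKM was 1.2 or more in 2, Htr1b and Htr7 (13.8% of all genes), and no receptor gene was as much lower (8.18%). The median log2 fold change was 0.13 over the receptor genes and 0.01 over all genes. With 2 samples a group, the exact two-sided permutation test of a gene whose groups do not overlap gives p = 0.333, the smallest it can give. Since the reads of each gene could be recovered, limma's voom was run on them as well. It weighs each value by the spread expected at its level of reads. Voom called 290 of 17426 genes (1.66%, with 1.28% higher and 0.384% lower in KI) and 0 of the 10 receptor genes. At an unadjusted p under 0.05 voom gave 1 receptor gene, again Htr1b, against 12.1% of all genes.

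**Figure D3:**
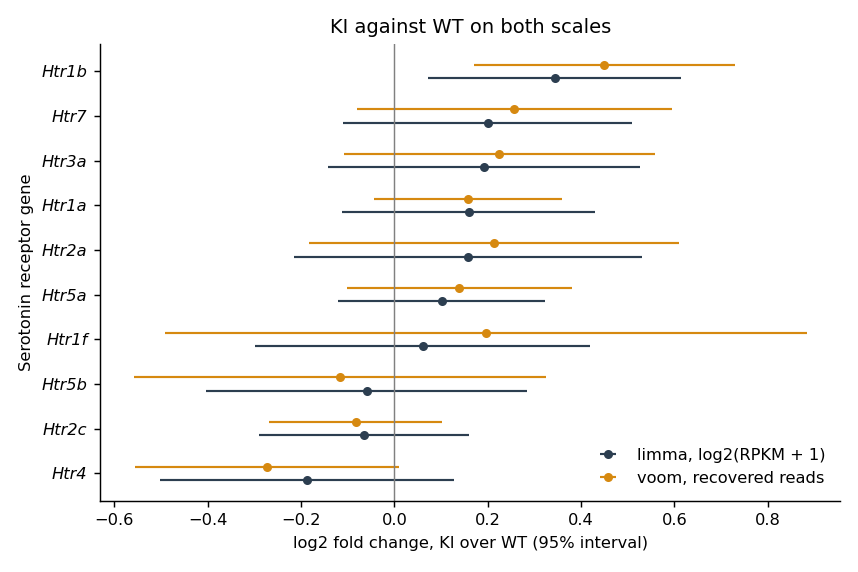
Log2 fold change of KI over WT with its 95% interval (horizontal axis) for each serotonin receptor gene (vertical axis), from limma on log2(RPKM + 1) in dark blue and from voom on recovered reads in orange. Htr1b is the gene whose intervals lie above 0 on both scales, at 0.07 to 0.61 and 0.17 to 0.73, and the intervals of the other 9 genes include 0.

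Among the Gi/o-coupled receptors, Htr1b differed most. It encodes 5-HT1B, a receptor of axon terminals that curbs the release of serotonin and, on the terminals of other neurons, of glutamate and GABA. Htr1b (ENSMUSG00000049511, chromosome 9, 81628291 to 81633828, minus strand, GRCm38) was at 2.46 and 2.11 RPKM in the WT samples, on 156 and 88 reads, and at 3.05 and 3.29 RPKM in the KI samples, on 207 and 232 reads. Both KI samples were thus above both WT samples, and the gap between the groups was wider than the gap within either. The WT mean was 2.29 ± 0.25 RPKM and the KI mean 3.17 ± 0.17 RPKM (SD over 2 samples), a ratio of 1.39. Its log2 fold change was 0.34 (standard error 0.10, 95% interval 0.07 to 0.61), with an adjusted p of 0.478 from limma. Limma's unadjusted p was 0.0231, where the exact permutation test gave 0.333. With voom on the reads it was 0.45, or 1.37-fold with a 95% interval of 1.13 to 1.66, with an adjusted p of 0.129. Htr1b thus did not pass the threshold in either. With the replicate number as a block in voom, Htr1b did pass (adjusted p = 0.0906). Its rank by level among the 10 genes was 8 and 9 in WT but 4 and 3 in KI.

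Htr1b shares its locus with D430036J16Rik (ENSMUSG00000097466, chromosome 9, 81631551 to 81645156, plus strand), annotated as an antisense gene, whose exons cover 1512 bases, or 32.0%, of the exons of Htr1b. The library kit named in the labels does not mark strand, so reads in the shared stretch cannot be assigned to either gene. D430036J16Rik was also higher in both KI samples, with 2.60 and 2.69 RPKM in WT and 3.14 and 3.17 RPKM in KI. Its log2 fold change was 0.19 (standard error 0.08), with an adjusted p of 0.552 from limma. If all of its 78, 53, 101 and 106 reads were taken away from Htr1b, 78, 35, 106 and 126 reads would be left, or 1.23 and 0.839 RPKM in WT and 1.56 and 1.78 RPKM in KI. How the reads of the shared stretch divide between the 2 genes was not tested.

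Htr1a (ENSMUSG00000021721, chromosome 13, 105443639 to 105448122, plus strand) rested on the most reads of the family, between 246 and 521. The KI samples, at 7.86 and 7.85 RPKM, were nearly equal and above both WT samples, at 7.64 and 6.27 RPKM, which lay further apart from each other than WT replicate 1 from KI. The WT mean was 6.96 ± 0.96 RPKM, the KI mean 7.85 ± 0.01 RPKM (SD over 2 samples) and the log2 fold change 0.16 (95% interval -0.11 to 0.43, adjusted p = 0.661 from limma). Without WT replicate 2, the sample of lowest depth, it was 0.04.

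Htr5a (ENSMUSG00000039106, chromosome 5, 27842149 to 27855088, plus strand) encodes 5-HT5A. Its values were close within each genotype, 2.67 and 2.74 RPKM in WT and 2.96 and 3.0 RPKM in KI. Both KI samples were above both WT samples by a small margin, with a ratio of means of 1.10 and a log2 fold change of 0.10 (95% interval -0.12 to 0.32, adjusted p = 0.739 from limma). Htr5b (ENSMUSG00000050534, chromosome 1, 121509842 to 121528465, minus strand) encodes the related 5-HT5B, whose human counterpart no longer makes a receptor. It was at 2.77 and 2.17 RPKM in WT and 2.16 and 2.49 RPKM in KI, on 37 to 72 reads, and the groups overlapped (log2 fold change -0.06, adjusted p = 0.920 from limma). Htr1f (ENSMUSG00000050783, chromosome 16, 64924729 to 65105854, minus strand), the gene of 5-HT1F, a target of drugs against migraine, rested on 17, 16, 24 and 26 reads. Its values of 0.505 and 0.722 RPKM in WT enclosed those of 0.665 and 0.693 RPKM in KI. The 95% interval of its change from voom ran from 0.712-fold to 1.85-fold and so held both a decrease and an increase.

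The Gq-coupled receptors gave no difference beyond the spread. Htr2a (ENSMUSG00000034997, chromosome 14, 74640840 to 74709494, plus strand) encodes 5-HT2A, the receptor through which classical hallucinogens act. It was at 2.13 and 2.14 RPKM in WT, 2.93 RPKM in KI replicate 1 and 2.12 RPKM in KI replicate 2. Only KI replicate 1 stood apart, so that the groups overlapped (log2 fold change 0.16, 95% interval -0.21 to 0.53, adjusted p = 0.760 from limma), and without that sample the log2 fold change was -0.01. Htr2c (ENSMUSG00000041380, chromosome X, 146962513 to 147197277, plus strand) encodes 5-HT2C, whose RNA is edited by the ADAR enzymes and which is also made in large amounts by the choroid plexus. It was at 3.58 and 3.66 RPKM in WT and 3.57 and 3.26 RPKM in KI, on 301 to 479 reads. Both KI values were below both WT values, in KI replicate 1 by 0.01 RPKM (log2 fold change -0.07, adjusted p = 0.848 from limma). The 95% interval from voom, 0.830-fold to 1.07-fold, was the narrowest of the family along with that of Htr1a, 0.970-fold to 1.28-fold.

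Choroid plexus markers varied between the libraries more than Htr2c did. Ttr, the transthyretin made by this epithelium, was at 8.13 and 13.8 RPKM in WT, 51.3 RPKM in KI replicate 1 and 8.89 RPKM in KI replicate 2. The 8 markers summed to 15.3 and 21 RPKM in WT and 62.7 and 18.3 RPKM in KI, a sum carried by Ttr. Every other marker except Aqp1 was also highest in KI replicate 1. Clic6, for example, was at 0.667 and 0.347 RPKM in WT and 1.17 and 0.564 RPKM in KI. In 4 of the 8 (Kl, Sostdc1 and, named after their values were seen, Aqp1 and Otx2) each KI sample was above each WT sample. Of the 4 markers that passed the filter on low values this held for 2, against 24.0% of all genes tested. Kl, a coreceptor for a fibroblast growth factor, was at 4.87 and 5.14 RPKM in WT and 7.05 and 6.72 RPKM in KI and was called by voom (log2 fold change 0.46, adjusted p = 0.0192), though not by limma (adjusted p = 0.340). The part of choroid plexus in the values of Htr2c was not tested.

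The 2 Gs-coupled receptors had log2 fold changes of opposite sign, neither past the threshold. Htr7 (ENSMUSG00000024798, chromosome 19, 35958734 to 36057507, minus strand), the gene of 5-HT7, was at 2.50 and 2.17 RPKM in WT and 2.58 and 3.09 RPKM in KI. Both KI samples were above both WT samples, but KI replicate 1 only by 0.08 RPKM (ratio of means 1.21, log2 fold change 0.20, 95% interval -0.11 to 0.51, adjusted p = 0.632 from limma). Without KI replicate 2 its log2 fold change was 0.10, and without WT replicate 2 it was 0.13. Htr4 (ENSMUSG00000026322, chromosome 18, 62324204 to 62496577, plus strand), the gene of 5-HT4, was at 3.457 and 2.895 RPKM in WT and 2.45 and 2.887 RPKM in KI. KI replicate 2 lay below WT replicate 2 by less than 0.01 RPKM, and the difference rested on WT replicate 1 and KI replicate 1 (log2 fold change -0.19, 95% interval -0.50 to 0.13, adjusted p = 0.660 from limma). It was -0.09 without the former and -0.10 without the latter. With voom Htr4 had a log2 fold change of -0.27 (adjusted p = 0.435). The summed RPKM of the pair was 5.96 and 5.06 in WT and 5.03 and 5.98 in KI.

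Htr3a (ENSMUSG00000032269, chromosome 9, 48899213 to 48911099, minus strand) was at 4.33 and 4.35 RPKM in WT, 5.81 RPKM in KI replicate 1 and 4.47 RPKM in KI replicate 2. Both KI samples were above the WT samples, but the difference rested on KI replicate 1 (log2 fold change 0.19, 95% interval -0.14 to 0.53, adjusted p = 0.671 from limma). Without that sample it was 0.03. Of the 7 markers of the interneurons that carry 5-HT3A, both KI values were above both WT values in 2, against 24.0% of all genes. The median log2 fold change of these markers was -0.00. Cck, a neuropeptide of these cells and of other neurons, was at 354 and 387 RPKM in WT and 399 and 360 RPKM in KI. The markers summed to 448 and 475 RPKM in WT and 502 and 451 RPKM in KI, most of it Cck. Calb2 was highest in WT replicate 1, and Ndnf and Reln in WT replicate 2, whereas Cck, Cnr1, Vip and Cxcl14 were highest in KI replicate 1, as was Htr3a. Vip, Ndnf and Reln were named after their values were seen, and the part of these cells in the value of Htr3a was not tested.

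**Figure D4:**
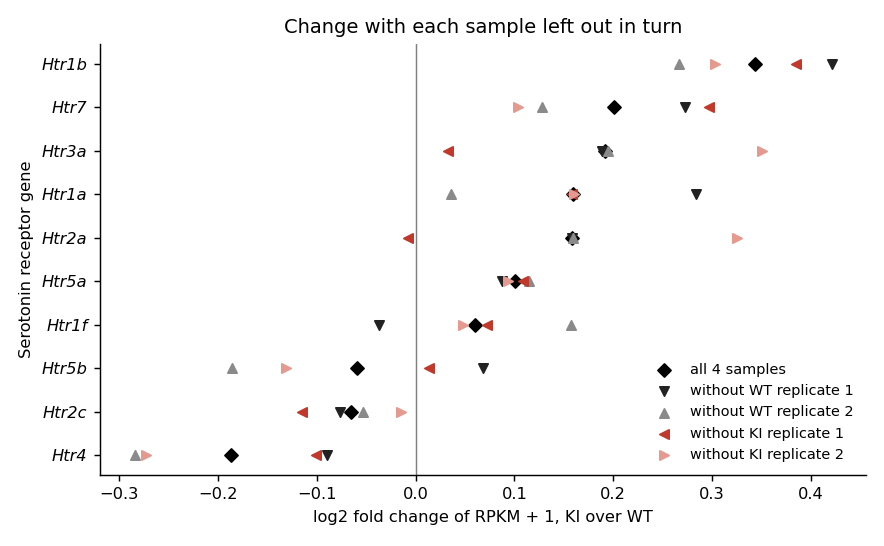
Log2 fold change of RPKM + 1 of KI over WT (horizontal axis) for each serotonin receptor gene (vertical axis), with all 4 samples (black diamonds) and with each sample left out in turn (triangles). Htr1b stays between 0.27 and 0.42, Htr5a between 0.09 and 0.11, and Htr1f, Htr2a and Htr5b cross 0.

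With each sample left out in turn, the receptor genes differed in how far they held. Of the 10 genes, 7 kept the sign of their log2 fold change whichever sample was left out, Htr1b among them. Htr1b ran from 0.27 without WT replicate 2 to 0.42 without WT replicate 1. In size, the difference depended on KI replicate 1 in Htr3a (0.03 without it) and in Htr2a (-0.01). In Htr1a it depended on WT replicate 2 (0.04 without it).

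The other 2 receptor subunits on the lists were at the limit of detection. Htr2b was at 0.07 and 0 RPKM in WT and 0.0979 and 0 in KI, and Htr3b, a partner subunit in the 5-HT3 channel, was listed in KI replicate 1 alone, at 0.0288 RPKM on 1 read. Markers of the serotonergic cell bodies of the raphe were near 0, as all 5 lay under 0.5 RPKM in each sample. Tph2, the enzyme that makes serotonin in neurons, was at 0.414 and 0.315 RPKM in WT and 0.338 and 0.256 RPKM in KI, and Slc6a4, the serotonin transporter, at 0.0148 to 0.025 RPKM.

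Of the 13 genes of serotonin synthesis, transport and breakdown, 9 passed the filter and 0 passed the threshold. Their median log2 fold change was -0.04. In 2 of the 9 each KI sample was above each WT sample, and in 2 below, against 24.0% and 18.1% of all genes. Slc29a4, the plasma membrane monoamine transporter that takes up serotonin with low affinity, was at 14.3 and 14.5 RPKM in WT and 10.9 and 12.4 RPKM in KI (log2 fold change -0.29, adjusted p = 0.439 from limma). Qdpr, Pts and Spr, which make or recycle the cofactor of serotonin synthesis, overlapped between the genotypes. Of the genes at an unadjusted p under 0.05, the other was Slc18a2, the vesicular monoamine transporter, named after its values were seen, at 2.23 and 1.82 RPKM in WT and 3.29 and 2.78 RPKM in KI (log2 fold change 0.42, adjusted p = 0.478 from limma).

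The genes through which the receptors signal were taken in 3 lists. For the 8 genes of Gi/o proteins and GIRK channels the median log2 fold change was 0.01, with 2 genes above and 2 below WT in both KI samples, where 24.0% and 18.1% of all genes were. Gnao1, the main Go subunit of brain, was at 108 and 109 RPKM in WT and 118 and 112 RPKM in KI. For the Gq proteins and the phospholipases C beta, 6 of 7 genes passed the filter and their median was -0.01, with Gnaq at 52.5 and 48.5 RPKM in WT and 45.7 and 46.3 RPKM in KI. For the 8 genes of Gs proteins and adenylyl cyclases the median was 0.12, and 4 genes were above and 2 below WT in both KI samples. At an unadjusted limma p under 0.05 there were 2 of the 8, against 9.62% of all genes. They were Adcy5 and Adcy3, both named after their values were seen. Adcy5 was at 19.3 and 18.8 RPKM in WT and 23.2 and 21.2 RPKM in KI (log2 fold change 0.21, adjusted p = 0.483 from limma), and Adcy3 at 10.3 and 10.1 against 11.6 and 11.5 RPKM (log2 fold change 0.17, adjusted p = 0.490 from limma). Adcy1, the calcium-stimulated cyclase of hippocampal neurons, was at 106 RPKM in both WT samples and 89.2 and 103 RPKM in KI, and Gnas at 92.8 and 95.1 against 99.6 and 100 RPKM. None of these genes passed the threshold in limma or in voom.

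Among the 7 receptor partners and RNA editing enzymes the median log2 fold change was -0.03 and 0 passed the threshold in limma. Adar and Adarb1, which edit the RNA of Htr2c, overlapped between the genotypes, at 25.5 to 32.1 RPKM and 16.8 to 18.9 RPKM, and Arrb1 and Arrb2, the arrestins that switch off and take up G protein-coupled receptors, had log2 fold changes of 0.03 and -0.14. In voom 1 gene of this list passed, downward, and was named for that after its values were seen. It was Adarb2, an ADAR relative without known editing activity, at 2.94 and 3.62 RPKM in WT and 2.33 and 2.53 RPKM in KI (log2 fold change -0.40, adjusted p = 0.0842 from voom, and -0.32 with adjusted p = 0.511 from limma).

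**Figure D5:**
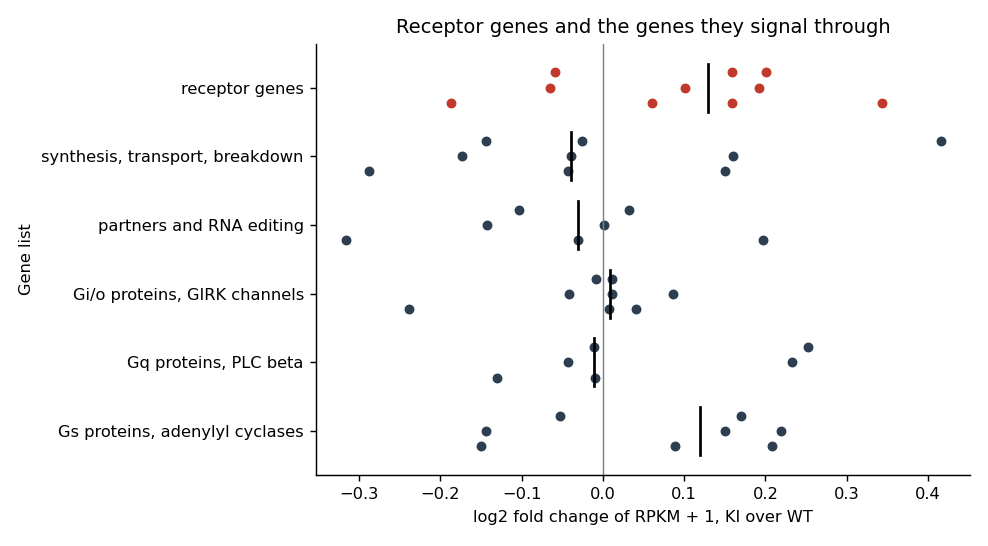
Log2 fold change of RPKM + 1 of KI over WT (horizontal axis) of each gene that passed the filter (points), for the receptor genes (red) and 5 lists of genes of serotonin handling and signalling (vertical axis), with the median of each list as a black line. The medians are 0.13 for the receptor genes, -0.04 for serotonin handling, -0.03 for partners and editing, 0.01 for Gi/o, -0.01 for Gq and 0.12 for Gs signalling.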

How the data were processed

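Samples were 2 of WT and 2 of Lsd1 KI hippocampal tissue. The authors used GSNAP and mm10, counted only pairs with a unique, proper alignment, and deposited RPKM per gene (Ensembl release 74), 1 file per sample. A gene without reads is not listed and was set to 0. RPKM times exon length (GENCODE M21, GRCm38) rises in whole-read steps, which gave each sample's depth and whole reads (tolerance 1e-06 reads) for all 26328 genes, 15467 of them at the annotated length. Where another length was needed, the shortest that gave whole reads in every sample was taken. A multiple of that length, with the reads multiplied alike, would fit as well.

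Groups were compared with limma (version 3.58.1, R 4.3.3) on log2(RPKM + 1), with a trended prior variance. P-values were adjusted by Benjamini-Hochberg across 18436 genes, those that reached 0.5 RPKM in 2 samples or more. The pseudocount shrinks the fold changes of low genes. Voom on the recovered reads (mean of at least 10 reads) was added after the data were seen. The authors used edgeR and reported differentially expressed genes. That test was not run here, so their calls come from another test than the limma fit, which called 0 genes. The code was tested on simulated data. Python 3.11.15, pandas 2.3.3, numpy 2.4.6, scipy 1.17.1 and matplotlib 3.10.9 served for the rest.

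All members were named. Of other lists, up to 4 genes of highest mean level were named, and exceptions are marked. The members and lists were chosen with earlier results of these data known. Habenula markers, where Htr5b is also found, summed to 5.00 and 4.37 RPKM in WT and 5.23 and 4.34 RPKM in KI.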

Additional observations from a re-analysis of the deposited data

How the results depend on the processing

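Of all genes, 0 were called in the comparison as reported, with a pseudocount of 0.1, without a filter, at a mean RPKM of at least 1, with the replicate block, with quantile or median-of-ratios scaling, when 1.5-fold or an adjusted p below 0.05 was asked for, and with each sample left out. The number called was 1 (downward) at a mean of at least 10 reads, 6 (5 upward, 1 downward) with that filter and the replicate block, 20 (17 and 3) without the mean-variance trend, 290 (223 and 67) with voom, and 466 (346 and 120) with voom and the replicate block, and the cause of these differences was not tested. At an unadjusted p under 0.05, limma gave 1774 genes. Of the receptor genes 0 passed in each of these, except 1, Htr1b, with voom and the replicate block (log2 fold change 0.45, adjusted p = 0.0906). Over all alternatives the adjusted p of Htr1b ran from 0.0906 to 0.739. Whether same-numbered samples were matched is not given by the labels. Their deviations had a Pearson correlation of -0.025 across 18436 genes, which are not independent. With 2 samples a group this value cannot decide it.

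Of 149 alternative values of single receptor genes, 144 kept their direction and their side of the threshold. The direction of 3 genes turned as samples were left out. The log2 fold change ran from -0.0367 (without WT replicate 1) to 0.16 for Htr1f. For Htr5b it ran from -0.19 to 0.0678 (without WT replicate 1), and it was 0.0135 without KI replicate 1. For Htr2a it ran from -0.0081 (without KI replicate 1) to 0.32. The median log2 fold change of all genes was 0.013 as deposited, -0.009 after quantile and 0.000 after median-of-ratios scaling, and no receptor gene turned with either. The lowest depth, 8827967 reads in WT replicate 2, limits Htr1f and Htr5b most, with 16 and 37 reads there.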
